A study of Mus musculus with 12 samples.

Results

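The 33 genes described here mark the cells that line blood and lymphatic vessels, and they were followed by gene symbol through a table of 55401 genes measured in 12 mouse mammary tumors. A gene was a member if its symbol was on a list of vessel genes. The rule used no measured value, but the list was chosen with earlier results of these data known. All 33 were found in the table, and 31 reached a level of at least 1 TPM (transcripts per 1000000 transcripts) in at least 3 tumors and could be tested; the selectin Sele and the lymphatic transcription factor Prox1 did not. Tumors of 4T1, a mouse mammary carcinoma line, were grown orthotopically in Balb/c mice, and treatment began when they reached 100 mm3. There were 4 groups of 3 libraries each. The control group received an isotype control (IgG1-Fc), the IL-10-Fc group received interleukin-10 joined to an antibody Fc, the aCSF1R group received an antibody against the macrophage growth factor receptor CSF1R, and the BF10 group received a mouse IgG2a antibody against CSF1R fused to human IL-10. All 4 groups bore the same tumor line. The sample labels give 6 doses and the series text gives 4, so the number of doses is uncertain. Each library was made from bulk tumor tissue, so fewer vessel cells and less RNA per vessel cell cannot be told apart in any value below.

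Endothelial cells form the inner lining of blood vessels and are held together by VE-cadherin and other junction proteins. Lymphatic endothelial cells are set apart from blood endothelial cells by the transcription factor Prox1 and commonly carry the hyaluronan receptor Lyve1. New vessels in a tumor grow by sprouting, in which leading tip cells respond to growth factors, and macrophages near vessels are known to take part in that growth. CSF1R carries the signal that most tissue macrophages need to survive.

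The libraries were of near equal depth, at 3.09e+07 to 3.59e+07 fragments each, as estimated from the smallest values in the table. They fell into 2 sets by the sum of all FPKM values (fragments scaled by gene length and library size): 5 libraries summed above 700000 and 7 below. The 5 higher-sum libraries, marked as such below, were control replicates 4 and 7, IL-10-Fc replicate 7, aCSF1R replicate 8 and BF10 replicate 6. Mitochondrial genes took 5.90 to 9.26% of the total in them and 3.14 to 3.96% in the 7 lower-sum libraries, and ribosomal protein genes took 20.9 to 25.2% against 12.99 to 15.5%. Nothing in the labels gives a reason for these sets. Every group holds libraries of both, but control holds more of the higher-sum libraries than any other group. Because the vessel genes differed more in TPM between the sets than between the treatments, each treatment comparison below is given with and without the set as a model term.

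The junction and adhesion genes were present in every tumor. Pecam1, the adhesion receptor CD31 (GRCm38 chr11:106654217-106750628, minus strand), was at 10.5, 31.3 and 10.001 TPM in control replicates 4, 5 and 7. After IL-10-Fc it was at 39.7, 36.8 and 17.8 TPM (replicates 2, 4 and 7). It was at 40.4, 33.9 and 5.90 TPM in aCSF1R replicates 4, 6 and 8, and at 49.8, 10.9 and 26.1 TPM in BF10 replicates 3, 6 and 7. All 4 groups overlapped, and the lowest library of each group except control was its single higher-sum library. Cdh5, which encodes VE-cadherin (chr8:104101625-104144511, plus strand), was at 7.28, 27.1 and 7.02 TPM in the same control libraries and 34.3, 30.5 and 15.2 TPM in the IL-10-Fc libraries. It was at 32.1, 23.5 and 2.64 TPM under aCSF1R and 39.9, 9.23 and 17.0 TPM under BF10. Cdh5 thus ordered the libraries within each group as Pecam1 did. Of the other junction genes, Esam, a tight junction adhesion molecule, ranged from 4.58 to 26.5 TPM, Cldn5, the main claudin of endothelial tight junctions, from 3.78 to 19.9 TPM, and Icam2, a ligand of leukocyte integrins, from 5.05 to 12.2 TPM.

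Receptors and surface glycoproteins spanned high and low levels. Eng, which encodes the TGF-beta co-receptor endoglin, had a mean of 65.3 TPM over the 12 libraries, the highest of the 33 genes, and ranged from 14.8 to 99.1 TPM. Plvap, the protein of the diaphragms that close capillary pores, ranged from 6.98 to 99.6 TPM, and its highest value was in BF10 replicate 3. Among the other surface glycoproteins, Cd34 ranged from 8.18 to 45.5 TPM, Emcn (endomucin) from 12.98 to 33.6 TPM, Cd93 from 1.43 to 27.4 TPM and Clec14a from 0.868 to 5.60 TPM. Mmrn2, a matrix protein that binds Cd93 and Clec14a, ranged from 0.488 to 9.45 TPM. Tie1, the orphan receptor of the angiopoietin system, ranged from 0.857 to 15.05 TPM, and Ptprb, the phosphatase VE-PTP, from 0.564 to 3.35 TPM. Robo4, a guidance receptor, ranged from 1.55 to 10.6 TPM and Aplnr, the apelin receptor, from 1.42 to 20.99 TPM. Apln, its secreted ligand and a tip cell product, was higher than the receptor in every group by mean TPM, at 20.6 ± 13.1 (SD, n = 3) in control, 38.4 ± 11.4 under IL-10-Fc, 32.6 ± 24.3 under aCSF1R and 34.0 ± 14.6 under BF10.

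Small membrane proteins, signaling proteins and secreted factors spanned a similar range. Ecscr, a small endothelial membrane protein, ranged from 16.6 to 76.0 TPM, while the junction regulator Rasip1 ranged from 1.81 to 10.8 TPM and Myct1 from 0.564 to 3.21 TPM. Nos3, the endothelial nitric oxide synthase, ranged from 1.31 to 5.23 TPM. Of the secreted products, Egfl7 ranged from 15.1 to 80.9 TPM and Esm1, a tip cell proteoglycan, from 0.651 to 5.77 TPM. Gpihbp1, which anchors lipoprotein lipase on capillaries, varied least of the 33 genes, from 16.8 to 27.9 TPM or 1.66-fold.

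The transcription factors other than Sox18 were low, with means of 2.97 TPM or less over the 12 libraries. Erg, the ETS factor that maintains endothelial identity, ranged 56.0-fold, from 0.174 TPM in aCSF1R replicate 8 to 9.73 TPM in BF10 replicate 3, the widest range of the 33 genes. Of the SOX factors of vessels, Sox18 was highest at 4.70 to 16.5 TPM, followed by Sox17 at 1.13 to 4.38 TPM and Sox7 at 0.250 to 1.71 TPM, and the ranges of the last pair overlapped. Prox1 was at 0.146, 0.0953 and 0.122 TPM in control replicates 4, 5 and 7 and at 0.0314, 0.247 and 0.0511 TPM after IL-10-Fc (replicates 2, 4 and 7). It was at 0.179, 0.131 and 0.141 TPM in aCSF1R replicates 4, 6 and 8 and at 0.985, 0.0603 and 0.109 TPM in BF10 replicates 3, 6 and 7. Only BF10 replicate 3 approached 1 TPM, so the lymphatic identity factor was near the lower end of measurement in the other 11 libraries. Sele, the selectin of inflamed endothelium, ranged from 0.0217 to 1.06 TPM, with its highest value in the same library.

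Vwf, Selp and Lyve1 are shared with other cells. Vwf, the clotting protein stored by endothelium and platelets, was at 2.30, 3.53 and 3.60 TPM in the control libraries, 4.63, 4.87 and 2.197 TPM under IL-10-Fc, 6.16, 3.79 and 0.868 TPM under aCSF1R and 5.60, 2.76 and 5.06 TPM under BF10. Selp, the selectin stored with it, was at 1.12, 2.60 and 1.21 TPM in control, 4.95, 6.28 and 2.38 TPM under IL-10-Fc, 4.91, 7.41 and 0.445 TPM under aCSF1R and 10.5, 1.16 and 2.93 TPM under BF10. Neither gene separated the groups. Pf4, a platelet chemokine that macrophages also make, fell with aCSF1R (-2.66 on the log2 scale, SE 0.40, adjusted p = 0.0105, limma). Vwf and Selp were not called in that comparison, with log2 differences of -0.03 and 0.70 (SE 0.48 and 0.72). The part of platelets in their levels was not tested.

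**Figure D1:**
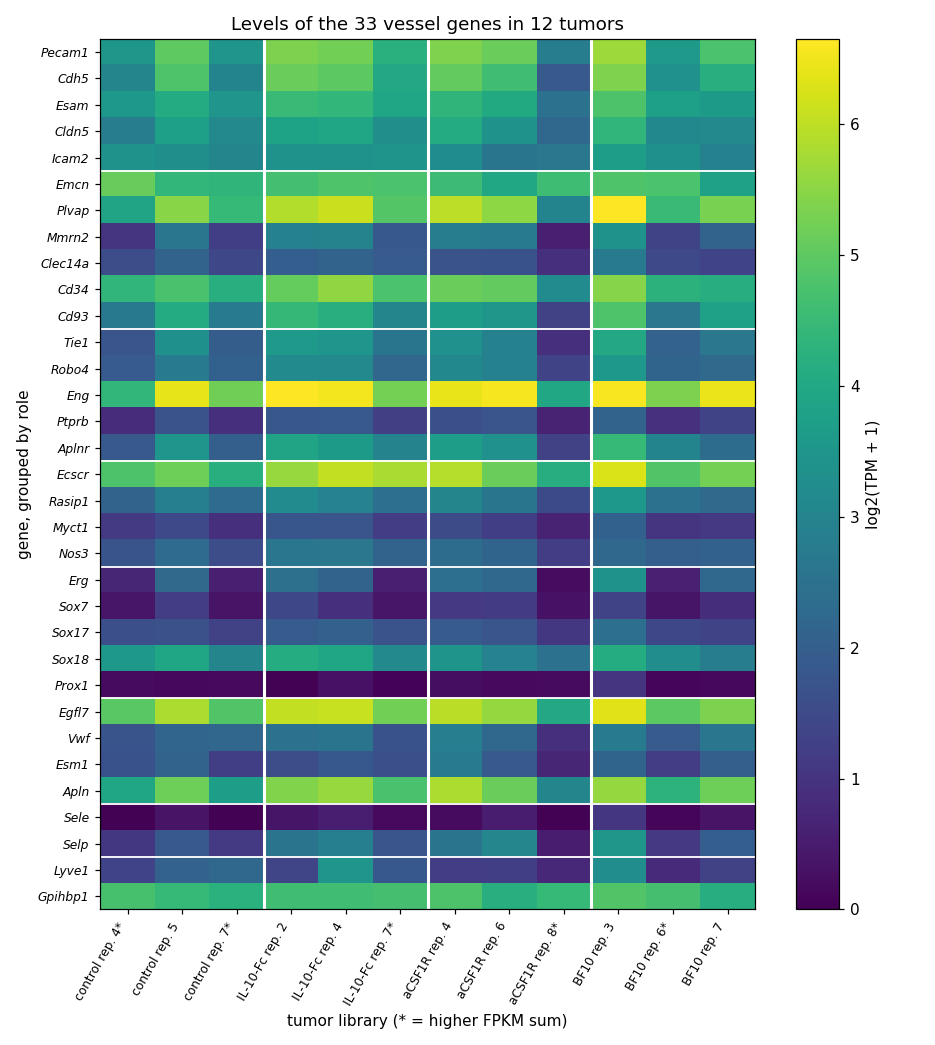
Levels of the 33 vessel genes (rows, grouped by role) in the 12 tumor libraries (columns, 4 groups of 3), as log2(TPM + 1). Asterisks mark the 5 higher-sum libraries, which are darker for most genes, whereas Emcn and Gpihbp1 stay at similar levels in all 12; BF10 replicate 3 is the brightest column and aCSF1R replicate 8 the darkest.

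Promoter sequences were read for every member that had one available. Erg and the SOX factors are themselves members and bind short, known DNA letters. RefSeq promoter windows (GRCm38.p6, 250 bases before to 50 after a gene's start) were found for 16 of the 33 genes, 21 windows in all, and not for Pecam1, Cdh5 or Cd93. Each window was searched on both strands for CCGGAA and CAGGAA, 2 forms of the ETS core, and for ACAAT, a SOX core; no 6 bases match both ETS forms on 1 strand. CAGGAA was in 14 of 21 member windows (66.7%, from 13 genes) and in 30.6% of all 32851 windows. CCGGAA was in 0 of 21 against 14.9%. Either ETS form was thus in 14 of 21 member windows (66.7%) against 41.4% of all windows. ACAAT was in 5 of 21 (23.8%) against 31.0%. These matches are letters only, and several windows belong to 1 gene. The 4 sequences below are the bases upstream of the start outside annotated exons, 5′ to 3′ on the strand of the gene, with matches in capitals (reverse complements TTCCTG and ATTGT included). They show Apln and Emcn, named in the treatment comparisons, and Erg and Eng, among the genes that differed most between the library sets. The Erg window printed is that of a start inside the gene, at chr16:95459349-95459598 (minus strand), and it alone of the Erg windows had a match upstream. Those at chr16:95586594-95586843, before the 5′ end of the gene, and chr16:95530366-95530615 had none of the 3 motifs there. Apln lies at chrX:48034854-48035103 (minus), Emcn at chr3:137340828-137341066 (plus) and Eng at chr2:32646345-32646594 (plus), and in Eng none of the 3 motifs was found.
Apln: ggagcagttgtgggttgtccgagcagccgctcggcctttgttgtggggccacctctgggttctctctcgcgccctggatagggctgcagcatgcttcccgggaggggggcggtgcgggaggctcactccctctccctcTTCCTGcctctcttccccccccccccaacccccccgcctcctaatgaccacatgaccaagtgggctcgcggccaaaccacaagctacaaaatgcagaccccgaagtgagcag
Emcn: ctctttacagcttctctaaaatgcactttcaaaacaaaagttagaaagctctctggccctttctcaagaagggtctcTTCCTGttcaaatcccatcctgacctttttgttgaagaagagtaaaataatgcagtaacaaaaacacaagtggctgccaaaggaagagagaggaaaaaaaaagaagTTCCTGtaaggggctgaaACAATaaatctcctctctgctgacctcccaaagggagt
Erg: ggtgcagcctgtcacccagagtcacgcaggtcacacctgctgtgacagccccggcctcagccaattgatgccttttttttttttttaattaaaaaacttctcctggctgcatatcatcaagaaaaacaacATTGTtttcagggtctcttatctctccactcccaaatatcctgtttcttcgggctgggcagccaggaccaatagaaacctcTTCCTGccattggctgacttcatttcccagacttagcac
Eng: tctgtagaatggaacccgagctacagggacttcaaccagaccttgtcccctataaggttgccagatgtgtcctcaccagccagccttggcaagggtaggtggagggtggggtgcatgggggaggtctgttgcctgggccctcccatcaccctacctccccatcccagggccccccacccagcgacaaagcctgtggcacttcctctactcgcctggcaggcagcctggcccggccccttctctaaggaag

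The first comparison asked whether the vessel genes differed between tumors given IL-10-Fc and control. Directions below are the sign of the fitted difference in mean log2(TPM + 1), which can differ from that of the mean TPM. All 31 tested genes were higher after IL-10-Fc on that scale, with a median log2 difference of 0.56 beside 0.35 over all 15504 genes tested. Here and below, the sign of the median over all genes is the direction that most genes took. Counts of signs among the vessel genes are to be read beside it. Control also held more of the higher-sum libraries than the IL-10-Fc group did. None of the 31 passed the threshold (adjusted p below 0.05 in limma and at least 1.5-fold), as against 0.00645% of all genes, and 1 of 31 had an unadjusted p below 0.05. That gene was Ecscr, at 26.9, 35.5 and 17.3 TPM in control and 48.5, 65.3 and 54.7 TPM after IL-10-Fc. Every IL-10-Fc tumor thus lay above every control tumor. The log2 difference of Ecscr was 1.10 (SE 0.48, adjusted p = 0.738, limma) and 0.84 (SE 0.35, adjusted p = 0.942) with the library set as a term. Over all other settings its adjusted p ran from 3.7e-04, with sample weights, to 1. Nos3 was at 2.32, 4.00 and 1.97 TPM in control and at 5.15, 5.23 and 3.35 TPM after IL-10-Fc, so its groups overlapped (log2 difference 0.58, SE 0.35, adjusted p = 0.738). Apln was at 14.2, 35.7 and 12.1 TPM in control and 41.2, 48.1 and 25.8 TPM after IL-10-Fc, also overlapping (0.98, SE 0.68, adjusted p = 0.738). Groups did not overlap for 3 of the 31 genes, Ecscr, Cd34 and Sox17, against 6.53% of all genes. Cd34, the sialomucin of capillaries and blood progenitors, was at 19.8, 25.8 and 16.9 TPM in control and 32.7, 45.5 and 26.5 TPM after IL-10-Fc. With the set as a term the median of the 31 was 0.23 beside 0.10 over all genes, none passed (0.0258% of all genes did), and leaving out 1 library at a time put the median without the term between 0.41 and 0.81.

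**Figure D2:**
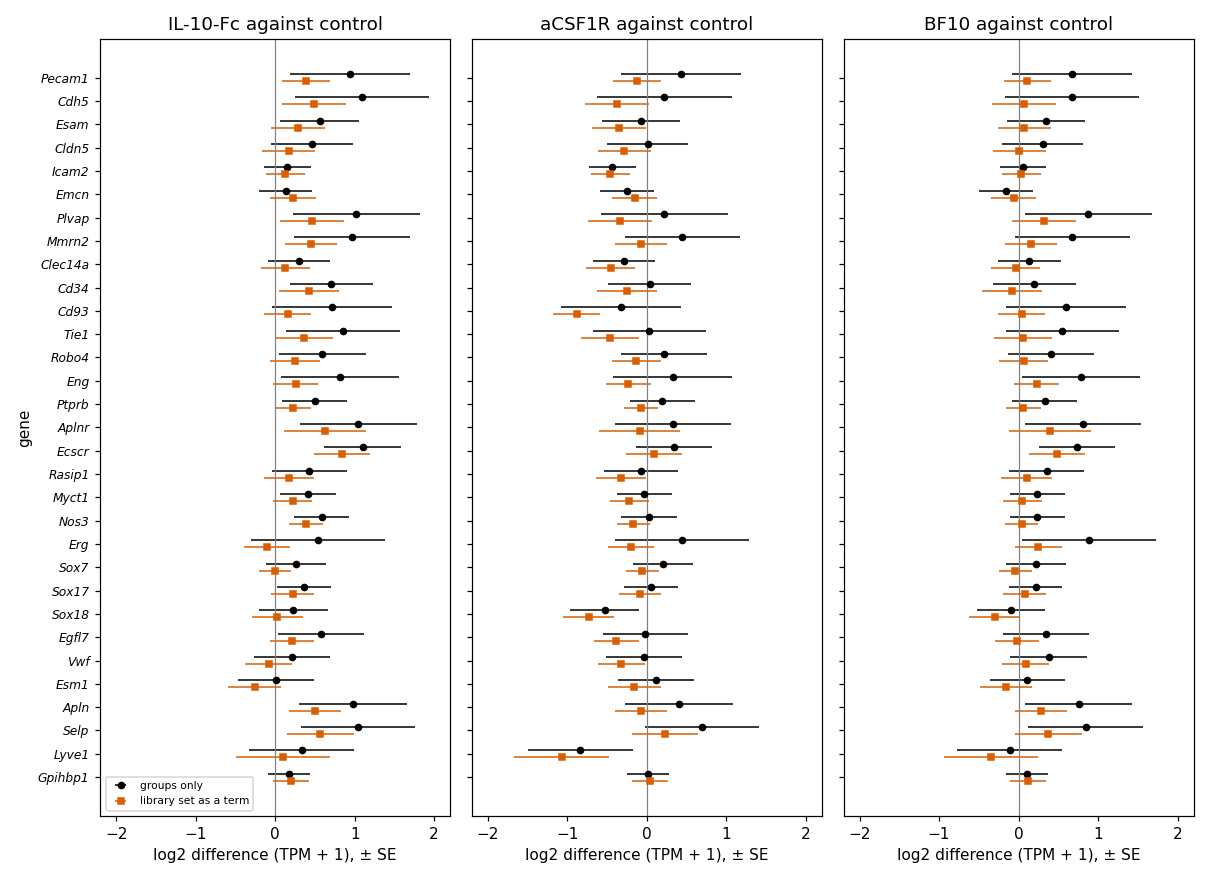
Log2 difference of each of the 31 tested vessel genes from control on the log2(TPM + 1) scale, with bars of 1 SE, for IL-10-Fc, aCSF1R and BF10; black circles are from a model of the groups and orange squares from a model that also holds the library set. All black points for IL-10-Fc lie above 0, the orange points lie closer to 0 than the black ones for most genes in the IL-10-Fc and BF10 panels, and Ecscr stands at 1.10 for IL-10-Fc.

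The next comparison asked whether an antibody against the macrophage receptor changed the vessel genes. It lowered the macrophage markers: 6 of 9 passed the threshold, the median log2 difference of the list was -2.96, and the summed markers were 105.2 to 292.1 TPM under aCSF1R against 1810 to 2320 TPM in control. No vessel gene was called beside them. The median log2 difference of the vessel genes was 0.04 beside 0.24 over all genes tested, 20 of 31 were higher and 11 lower on the log2 scale, and none passed, against 0.568% of all genes. No gene had an unadjusted p below 0.05. The 3 smallest p-values belonged to Icam2, Lyve1 and Sox18, all lower under aCSF1R. Icam2 was at 9.75, 9.02 and 7.31 TPM in control and 8.42, 5.05 and 5.35 TPM under aCSF1R, with 1 treated tumor inside the control range (log2 difference -0.43, SE 0.29, adjusted p = 0.893). Sox18, the SOX factor needed for lymphatic fate, was at 10.6, 14.3 and 7.17 TPM in control and 9.84, 6.77 and 4.70 TPM under aCSF1R (-0.53, SE 0.43, adjusted p = 0.893), and the groups overlapped. Lyve1 was at 1.55, 3.29 and 3.73 TPM in control and 1.301, 1.34 and 0.684 TPM under aCSF1R. It was the only vessel gene whose groups did not overlap, 1 of 31 against 5.28% of all genes, and its log2 difference was -0.84 (SE 0.66, adjusted p = 0.893).

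Lyve1 is also made by a class of macrophages near vessels. The 7 markers of that class, Folr2, Cd163, Mrc1, F13a1, Timd4, Cd209f and Gas6, all passed the filter, none was at 0 in any library, and all 7 were lower under aCSF1R in mean log2(TPM + 1), although Gas6 was higher in mean TPM (15.5 against 13.7). Their sum was 87.4 to 138.2 TPM in control, 103.2 to 179.5 under IL-10-Fc, 83.8 to 226.3 under BF10 and 14.0 to 52.5 under aCSF1R. Without the set as a term Mrc1, the mannose receptor, alone of the 7 passed the threshold (-2.96, SE 0.30, adjusted p = 0.00111, limma). With it, Folr2 (-2.13, adjusted p = 0.00813) and F13a1 (-1.66, adjusted p = 0.0351) passed too. The part of these cells in the Lyve1 values was not tested. Lyve1 was not called in any group comparison, with or without the set as a term, and its level in the 12 libraries did not keep to the groups: the highest values were 10.1 TPM in IL-10-Fc replicate 4 and 8.57 TPM in BF10 replicate 3, and the other IL-10-Fc and BF10 libraries held 0.748 to 2.57 TPM.

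With the library set as a term, 28 of 31 vessel genes were lower under aCSF1R than in control on the log2 scale, with a median of -0.22 beside 0.01 over all genes. None passed, whereas 2.01% of all genes did. An unadjusted p below 0.05 in limma was found for 2 of 31, Cd93 and Sox18, beside 1168 of all 15504 genes tested. Cd93, a lectin-like receptor of endothelium and of myeloid cells, was at 5.46, 16.2 and 5.62 TPM in control and 12.4, 10.5 and 1.43 TPM under aCSF1R, which overlap. Within the lower-sum libraries it was lower in both treated tumors than in control replicate 5, and within the higher-sum libraries it was lower in the treated tumor than in both controls. Its log2 difference was -0.88 with the term (SE 0.29, adjusted p = 0.292) and -0.33 without it (SE 0.75, adjusted p = 0.894), and it ran from 0.029 to 1 in adjusted p over all other settings. Cd93 was singled out here after its values were seen. The summed macrophage markers, unlike Cd93, did not overlap between these groups, at 105.2 to 292.1 TPM under aCSF1R and 1810 to 2320 TPM in control. The part of macrophages in the Cd93 level was not tested. Leaving out aCSF1R replicate 8, the library with the lowest value in 28 of the 31 genes, moved the median of the vessel genes without the term to 0.54, and leaving out aCSF1R replicate 4 moved it to -0.30.

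BF10 was compared with control and with each of its parts. Against control, 28 of 31 vessel genes were higher on the log2 scale, with a median log2 difference of 0.35 beside 0.32 over all genes. None passed the threshold (0% of all genes did), none had an unadjusted p below 0.05, and no gene's groups were apart, against 3.53% of all genes. Ecscr was at 76.0, 27.7 and 37.6 TPM under BF10 (0.73, SE 0.48), Selp differed by 0.84 (SE 0.72) and Apln, at 47.8, 18.7 and 35.6 TPM, by 0.76 (SE 0.68), and for all 3 the limma adjusted p was 0.788. Their high values were in BF10 replicate 3. Without that library the median of the 31 was -0.02, and without BF10 replicate 6 it was 0.60. With the set as a term the median was 0.06 beside 0.07 over all genes, and none passed, against 0.00645%.

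Against IL-10-Fc, 28 of 31 vessel genes were lower under BF10 on the log2 scale, with a median of -0.18 beside -0.05 over all genes. None passed (0% of all genes did, with the set as a term also 0%), none had an unadjusted p below 0.05, and 0 of 31 were apart, against 2.13% of all genes. Nos3 was at 3.79, 3.06 and 3.15 TPM under BF10, inside or below the IL-10-Fc range (-0.35, SE 0.35). Cd34 was at 42.6, 18.4 and 16.8 TPM under BF10 (-0.51, SE 0.52), and Emcn was at 24.4, 27.2 and 26.4 TPM under IL-10-Fc and 27.1, 26.3 and 12.98 TPM under BF10 (-0.29, SE 0.34). The adjusted p in limma was 1 for all 3. Without BF10 replicate 3 the median of the 31 was -0.58, and without BF10 replicate 6 it was 0.06.

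Against aCSF1R, 30 of 31 vessel genes were higher under BF10 on the log2 scale, with a median of 0.36 beside 0.06 over all genes. None passed, against 0.735% of all genes and 2.82% with the set as a term, and 0 of 31 were apart between the groups, against 5.91%. Icam2 was at 12.2, 9.07 and 6.58 TPM under BF10, above the aCSF1R tumors except where BF10 replicate 7 fell between them (0.49, SE 0.29, adjusted p = 1). Cd93 was at 27.4, 5.32 and 13.1 TPM under BF10 (0.92, SE 0.75, adjusted p = 1; with the set as a term SE 0.28 and adjusted p = 0.175). Lyve1 was at 8.57, 0.748 and 1.46 TPM under BF10 (0.73, SE 0.66, adjusted p = 1). BF10 and aCSF1R differed in the macrophage markers, of which 6 of 9 were called higher under BF10. Without aCSF1R replicate 8 the median of the 31 vessel genes was -0.21, and without aCSF1R replicate 4 it was 0.71.

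IL-10-Fc and aCSF1R, the separate parts, were compared with each other. Of the 31 genes 30 were higher under IL-10-Fc on the log2 scale, with a median of 0.52 beside 0.11 over all genes, and none passed, against 0.542% of all genes. Groups were apart for 4 of 31, Emcn, Clec14a, Icam2 and Lyve1, against 7.49% of all genes. Icam2 was at 9.58, 9.73 and 9.85 TPM after IL-10-Fc, above all 3 aCSF1R tumors (0.59, SE 0.29, adjusted p = 1, limma). Lyve1 was at 1.60, 10.1 and 2.57 TPM after IL-10-Fc (1.17, SE 0.66, adjusted p = 1; 0.0022 with sample weights to 1 over all other settings), and Sox18 was at 16.5, 14.1 and 7.80 TPM, which overlaps the aCSF1R tumors (0.76, SE 0.43, adjusted p = 1). No gene had an unadjusted p below 0.05. With the set as a term 7 of 31 did, all higher under IL-10-Fc (Cdh5, Tie1, Ecscr, Sox18, Icam2, Cd93 and Nos3). Of all 15504 genes tested 1488 did, 1285 of them higher under IL-10-Fc. None of the 31 passed after adjustment, while 2.13% of all genes did. The smallest was Cd93, at 20.5, 17.2 and 7.28 TPM after IL-10-Fc, with a log2 difference of 1.04 (SE 0.28, adjusted p = 0.124; 0.061 to 1 over all other settings). Without aCSF1R replicate 8 the median of the 31 was 0.01, without aCSF1R replicate 4 it was 0.88, and with replicate number as a block it turned to -0.21.

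A last contrast asked whether BF10 differed from the sum of its 2 parts (the BF10 change from control less the changes under each part). The median of the vessel genes was -0.22 beside -0.28 over all genes, and none of 31 passed, against 0.29% of all genes, or 1.21% with the set as a term, when the median was 0.05. Ecscr (-0.71, SE 0.68), Selp (-0.89, SE 1.01) and Icam2 (0.34, SE 0.41) had the smallest p-values, all with an adjusted p of 0.975 in limma. These comparisons share control or treated libraries, so their values are not independent of each other. Weighting each library by how closely it followed its group made calls among the vessel genes, 12 in BF10 against control, 24 in IL-10-Fc against control, 22 in aCSF1R against control, 3 in IL-10-Fc against aCSF1R and 22 in the non-additive contrast. The same weights called 57.8, 59.8, 63.8, 12.7 and 59.1% of all genes in those 5 comparisons.

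**Figure D3:**
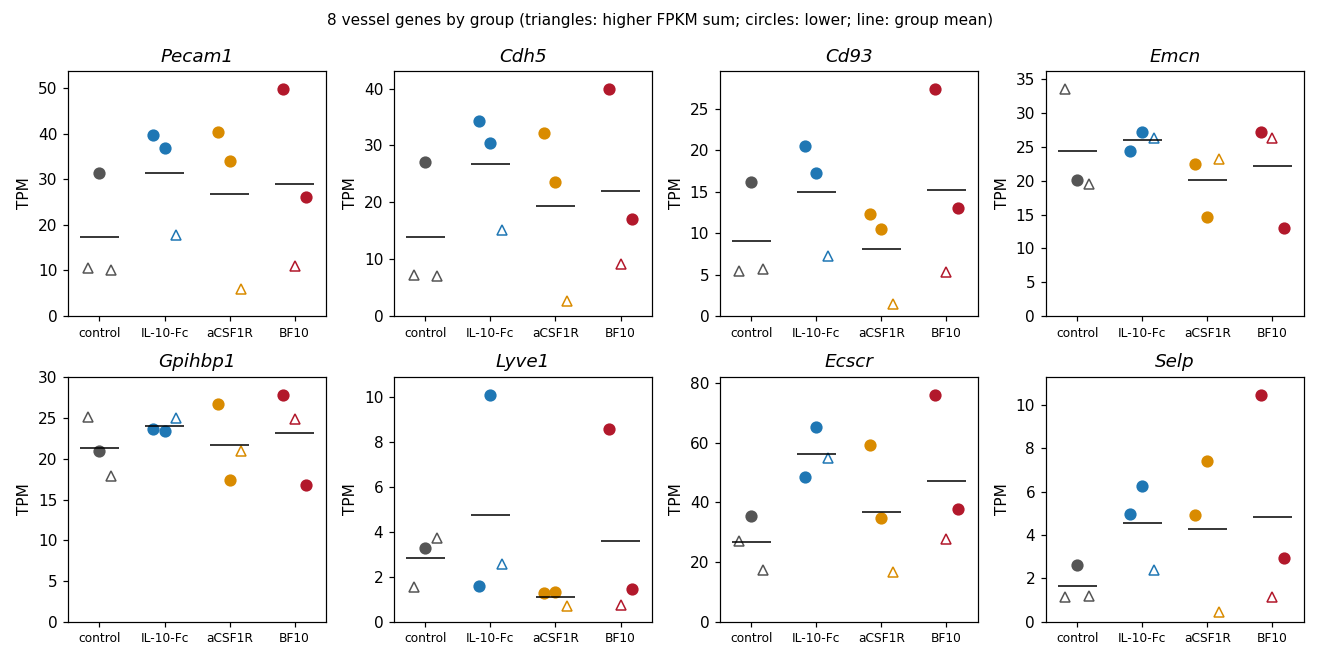
TPM of 8 vessel genes in each library by group; open triangles are the 5 higher-sum libraries, filled circles the 7 lower-sum libraries and lines the group means. For Pecam1, Cdh5, Cd93 and Selp every triangle lies below every circle, for Emcn and Gpihbp1 they mix, and Lyve1 is high in 1 IL-10-Fc and 1 BF10 library.

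On the TPM scale the vessel genes differed between the 2 sets of libraries more than between any groups. The sets were defined by the same sum that TPM divides by. Part of a lower value in the higher-sum libraries is therefore built into this scale, and the p-values are for a split taken from these data. With the groups in the model, 24 of the 31 were called lower in the higher-sum libraries and none higher, while 54% of all genes were called lower and 5.23% higher. The median of the vessel genes was -0.85, and that of all genes -0.68. Counted without a model, 14 of 31 had every higher-sum library below every lower-sum library, against 48.8% of all genes. Calls were made for 4 of 5 junction genes, 4 of 6 surface glycoproteins, 5 of 5 receptors, 3 of 4 small membrane and signaling proteins, 3 of 4 tested transcription factors, 4 of 4 secreted products and Selp.

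Erg differed most, at a lowest, median and highest value of 0.174, 0.511 and 0.628 TPM in the 5 higher-sum libraries and 3.38, 3.91 and 9.73 TPM in the 7 lower-sum libraries (log2 difference -1.92, SE 0.21, adjusted p = 2.8e-05, limma). Cdh5 was at 2.64, 7.28 and 15.2 TPM against 17.0, 30.5 and 39.9 TPM (-1.80, SE 0.29, adjusted p = 2.3e-04). Pecam1 was at 5.90, 10.5 and 17.8 TPM against 26.1, 36.8 and 49.8 TPM (-1.67, SE 0.22, adjusted p = 5.6e-05). The sets did not overlap for these 3 genes, nor for the 7 that followed. Eng was at 14.8, 35.9 and 39.2 TPM against 84.3, 92.4 and 99.1 TPM (-1.67, SE 0.21), so the 7 lower-sum libraries of 4 groups lay within a narrow band. Plvap was at 6.98, 21.01 and 28.1 TPM against 38.6, 58.7 and 99.6 TPM (-1.67, SE 0.29), and Cd93 at 1.43, 5.46 and 7.28 TPM against 10.5, 16.2 and 27.4 TPM (-1.67, SE 0.21). Mmrn2 (-1.56, SE 0.24), Tie1 (-1.47, SE 0.26), Apln (-1.42, SE 0.24) and Selp (-1.41, SE 0.31) completed the 10 with the largest differences, with adjusted p from 4.5e-05 to 0.00161 over the last 7.

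Emcn had a fitted difference in the other direction that was not called. It was at 19.6, 26.3 and 33.6 TPM in the higher-sum libraries and 12.98, 22.5 and 27.2 TPM in the lower-sum libraries (0.29, SE 0.21, adjusted p = 0.226). Gpihbp1 was at 17.9, 24.9 and 25.1 TPM against 16.8, 23.4 and 27.9 TPM (0.06, SE 0.16), and Icam2 at 5.35, 9.07 and 9.85 TPM against 5.05, 9.02 and 12.2 TPM (-0.08, SE 0.18). The sets overlapped for these 3 genes. Lyve1 (-0.71, SE 0.43), Myct1 (-0.57, SE 0.18, adjusted p = 0.0129 but under 1.5-fold), Clec14a (-0.52, SE 0.23) and Sox17 (-0.42, SE 0.19) were not called either. The ratio of Emcn to Pecam1 within a library separated the sets, at 1.48 to 3.92 in the higher-sum and 0.43 to 0.74 in the lower-sum libraries. Pecam1 alone already separated the sets, and Emcn had no called difference between them. The ratio therefore restates those values and is not separate support.

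These values depend on the scale. Median-of-ratios scaling moved the median of all genes between the sets from -0.68 to -0.02 and that of the vessel genes from -0.85 to -0.24. On that scale 10 vessel genes stayed called lower, against 19.7% of all genes, and they were the 10 with the largest differences named above. Emcn (1.14, SE 0.24, adjusted p = 0.00188), Gpihbp1 (0.91, SE 0.17) and Icam2 (0.71, SE 0.17) were then called higher, against 23.4% of all genes. Ecscr, Sox18, Nos3, Clec14a and Sox17 also turned from lower to higher on that scale, none of them called. On the deposited FPKM scale, 13 of 30 vessel genes were called lower and Emcn higher, against 36.3 and 13.1% of all genes. The vessel genes changed unequally between the sets on all 3 scales. A change of scale multiplies all genes of a library by a common factor, so this holds nearly by construction and is not separate support. Across the 31 genes, the rank correlation of the difference with total exon length was -0.23, and across 15486 genes with a length it was -0.33; genes are not independent replicates.

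**Figure D4:**
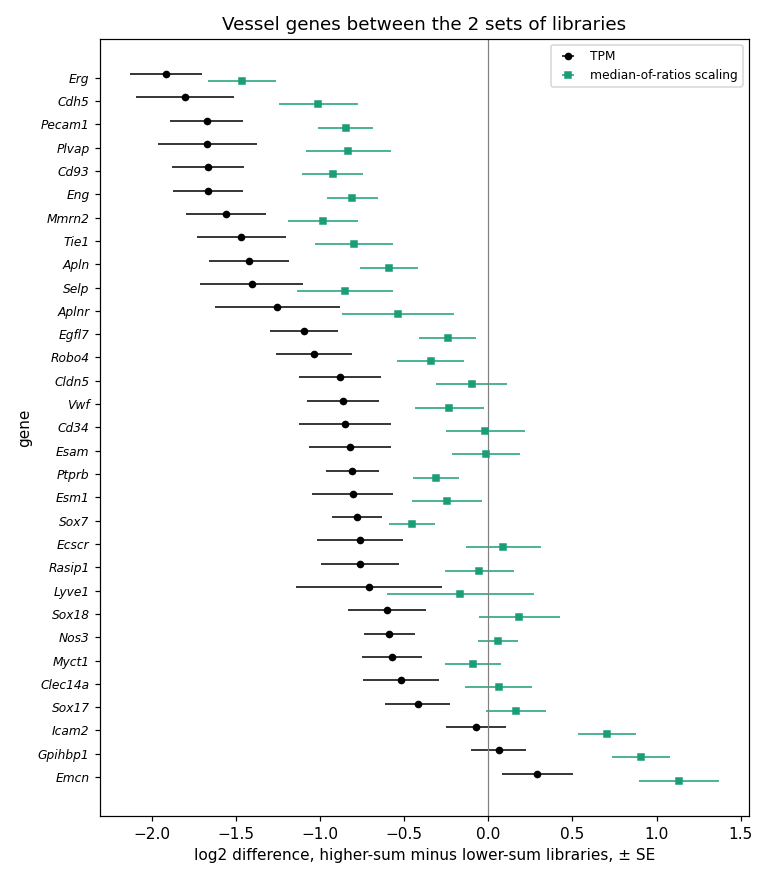
Log2 difference of the 31 tested vessel genes between the 5 higher-sum and 7 lower-sum libraries with bars of 1 SE, on the TPM scale (circles) and after median-of-ratios scaling (squares). The order runs from Erg at -1.92 to Emcn at 0.29 on the TPM scale, and the 3 genes at the bottom (Icam2, Gpihbp1 and Emcn) lie furthest above 0 after the other scaling, at 0.71, 0.91 and 1.14.

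The libraries also differed within the sets. BF10 replicate 3 was above the median of the lower-sum set in 30 of 31 genes and the highest of all 12 in 21, while 38.6% of all genes were above the median of their set in it and 19.8% were highest of the 12. Its 33 vessel genes summed to 817.6 TPM against 418.8 to 668.7 TPM in the other 6 lower-sum libraries. The same library held 98.1 TPM of the 6 lymphatic endothelial markers, 10222 TPM of the 7 fibroblast markers and 16345 TPM of the 5 neutrophil markers, all the highest of the 12. BF10 replicate 7, of the same group and set, was above the set median in 1 of 31 genes, beside 36.2% of all genes, and lowest of the set in 21, beside 12.8%. The lower-sum library aCSF1R replicate 6 was above the set median in 2 of 31 genes, beside 56.7% of all genes. IL-10-Fc replicate 7 was above the median of the higher-sum set in 28 of 31 genes, beside 72.4% of all genes, and aCSF1R replicate 8 in 0 of 31, being lowest of all 12 in 28, while it was the lowest of 12 for 46.4% of all genes. The part of the other cell types in these levels was not tested.

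**Figure D5:**
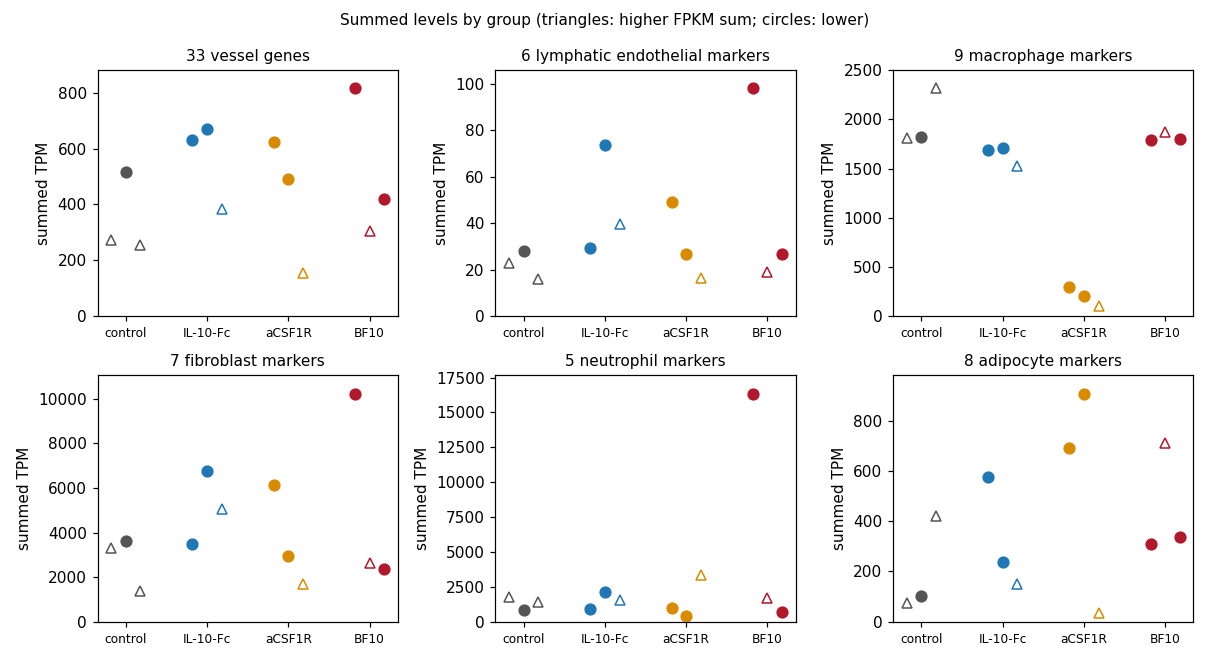
Summed TPM of the 33 vessel genes and of 5 marker lists in each library by group, with open triangles for the 5 higher-sum libraries and filled circles for the 7 lower-sum libraries. Macrophage markers are low in all 3 aCSF1R libraries at 105.2 to 292.1 TPM, whereas the vessel sums of that group run from 155.2 to 625.2 TPM; BF10 replicate 3 is the highest for vessel, lymphatic, fibroblast and neutrophil sums.

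Other genes of the vessel wall were read from lists of known genes. Of 25 tested endothelial genes outside the 33, none was called in any group comparison without the set as a term, and their medians were 0.63 for IL-10-Fc, 0.19 for aCSF1R and 0.49 for BF10 against control. With the set as a term, 2 of these 25 were called lower under aCSF1R than in control, beside 2.01% of all genes called in either direction, the transcription factors Lmo2 (-1.54, SE 0.22, adjusted p = 0.00298) and Hhex (-1.46, SE 0.28, adjusted p = 0.0201). Lmo2 was at 9.02, 6.51 and 3.19 TPM under aCSF1R against 14.5, 19.1 and 15.6 TPM in control, with no overlap. With the term, Lmo2 was also called higher under BF10 than under aCSF1R (1.74, adjusted p = 7.9e-04), higher under IL-10-Fc than under aCSF1R (1.66, adjusted p = 0.00146) and in the non-additive contrast (1.62, adjusted p = 0.028), and Hhex higher under BF10 than under aCSF1R (1.47, adjusted p = 0.0127). Lmo2 and Hhex also serve blood cell formation and are not specific to endothelium, and the macrophage markers fell in the same libraries. The part of endothelial, blood or macrophage cells in the levels of Lmo2 and Hhex was not tested. None was called among 12 arterial, venous and Notch genes, 10 tip cell genes, 8 lymphatic genes, 8 endothelial activation genes, 13 mural cell genes and 10 vessel basement membrane genes in any group comparison, with or without the term. Between the library sets, calls lower in the higher-sum libraries were made for 19 of 25 other endothelial genes, 11 of 12 arterial, venous and Notch genes, 8 of 10 tip cell genes, 3 of 8 lymphatic genes, 6 of 8 activation genes, 8 of 13 mural cell genes and 9 of 10 basement membrane genes, beside 54% of all genes. Medians there were -1.07, -1.22, -1.15, -0.70, -1.10, -1.11 and -1.54, beside -0.68 over all genes. The receptor for VEGF, Kdr (-1.76, SE 0.24), the sialomucin Podxl (-2.37, SE 0.19), the pericyte receptor Pdgfrb (-1.88, SE 0.32) and the laminin chain Lamb2 (-2.08, SE 0.18) were among them.

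The lymphatic genes were not resolved. Of the 6 lymphatic endothelial markers, Prox1, Lyve1, Flt4, Pdpn, Reln and Mmrn1, 4 passed the filter on low values, none was at 0 in every library, and none was called in any group comparison. Their sum was 15.9 to 28.0 TPM in control, 29.4 to 73.6 TPM under IL-10-Fc, 16.4 to 49.0 TPM under aCSF1R and 18.8 to 98.1 TPM under BF10. Flt4, the receptor for the lymphatic growth factor, was at most 6.08 TPM, in BF10 replicate 3. Most of the sum was Pdpn, at 9.59 to 73.3 TPM, which fibroblasts and tumor cells also make. The 7 fibroblast markers summed to 1386 to 3632 TPM in control, 3493 to 6781 under IL-10-Fc, 1694 to 6122 under aCSF1R and 2367 to 10222 under BF10. Cd34 has a like overlap with mast and progenitor cells: of 6 markers of these cells 5 passed the filter, Gata1 was at 0 in at least 1 library, and the sum was highest under aCSF1R, at 49.0 to 206.3 TPM against 9.83 to 27.2 in control, 10.6 to 30.5 under IL-10-Fc and 15.8 to 44.0 under BF10. Cd34 itself was at 34.0, 32.3 and 8.18 TPM under aCSF1R, lowest in the library with the highest of those sums. The part of fibroblasts and mast cells in these genes was not tested.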

How the data were processed

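RNA was extracted with Trizol from bulk tissue of 12 tumors, and libraries were made with a stranded mRNA kit and sequenced on a NextSeq 550. The labels do not say which mouse each sample came from, so p-values measure the spread between these samples. The authors deposited 1 table of FPKM values per gene to 2 decimals for all 12 libraries, and the submitters' processing notes name STAR 2.7.5a, RSEM 1.3.3 and DESeq2 1.28.0 with GRCm38. They also deposited 4 tables of their own comparisons (fold changes and p-values), not used here. Every sample column was matched to a label (0 unmatched).

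FPKM was divided by each library's sum and brought to 1000000 (TPM), and log2(TPM + 1) was fitted with limma 3.58.1 in R 4.3.3 (1 mean per group, all 12 libraries, trend, 8 residual degrees of freedom) for the 15504 genes with TPM of at least 1 in at least 3 libraries. Adjusted p is Benjamini-Hochberg over all of them, and a call needs 0.05 and 1.5-fold. A log2 difference on this scale understates changes of low genes. Depth was estimated from the value of 1 fragment in genes with 1 transcript; the values are not counts, so no counting intervals were computed. The fit was tried on simulated data that held no difference between the library sets, so that trial does not cover the spread that the sets add here. Libraries above 700000 in FPKM sum form the higher-sum set, which was defined from the data. Every member is named with its level; statistics are given for members past the threshold (at most 10, by size) or otherwise the 3 with the smallest p in each comparison, and values in every library for these and for Pecam1, Cdh5, Prox1, Lyve1, Vwf and Selp. Promoters come from RefSeq (GRCm38.p6), cut where a GENCODE exon begins, and none is printed from chromosome 18. The members, lists and rules were chosen with earlier results of these data known. Alternatives covered scaling, pseudocount, filter, sample weights, replicate block, library set and each library left out. The summed level of the platelet markers is not reported here.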

Additional observations from a re-analysis of the deposited data

How the results depend on the processing

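Of the calls among the vessel genes, 0 in each of 7 group comparisons remained 0 under every alternative run except sample weights, which gave 12 in BF10 against control, 24 in IL-10-Fc against control, 22 in aCSF1R against control, 3 in IL-10-Fc against aCSF1R and 22 in the non-additive contrast. Sample weights also moved the median of the vessel genes to 0.81 in aCSF1R against control and to -1.23 in the non-additive contrast, and turned Icam2 in that contrast to -0.10. Whether replicate numbers pair the libraries was not settled. Same-numbered libraries of different groups correlated between -0.663 and 0.417 in their deviations from the group means. Pairs within a library set were positive (0.349 and 0.417) and pairs across the sets negative (-0.663 to -0.26). The correlations follow the sets and so cannot decide on pairing. With the replicate block the median was 0.87 in aCSF1R against control and -0.44 in BF10 against aCSF1R. It was -0.21 in IL-10-Fc against aCSF1R and -1.17 in the non-additive contrast. Cd93 and Lyve1 in BF10 against aCSF1R turned to -0.27 and -0.066 with that block, and no vessel gene was called. Selp in BF10 against control was -0.0046 in the higher-sum libraries alone, a setting chosen after seeing the data, as were the scalings of the library set difference. Between the sets 24 calls became 13 with median-of-ratios scaling and 14 with FPKM not rescaled, and 16 to 26 with 1 library left out. With 1 library left out, the medians ranged from -0.02 to 0.60 for BF10, 0.41 to 0.81 for IL-10-Fc and -0.30 to 0.54 for aCSF1R against control, Emcn in BF10 against IL-10-Fc from -0.47 to 0.038 (without BF10 replicate 7), and Lyve1 in BF10 against aCSF1R from -0.0091 (without BF10 replicate 3) to 1.22. Median-of-ratios scaling turned the median to -0.17 in aCSF1R against control and to 0.04 in the non-additive contrast, FPKM not rescaled turned the former to -0.11, and sample weights turned it to -0.26 in BF10 against aCSF1R. The cause of these shifts was not tested. Depth is an estimate, and Prox1 and Sele lay too low to test.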
